A study of Mus musculus with 2 samples.

Results

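Annexins, S100 proteins, a galectin and the scaffold genes of the membrane cytoskeleton were followed in single mouse leukemia cells. The 10 genes were Anxa1, Anxa2, S100a4, S100a6, S100a10, S100a11, Ahnak, Capn2, Lgals1 and Vim, of 31053 in the count matrices. They were selected by symbol from a list that was drawn up with earlier results of these libraries known, the difference between the libraries among them. Their values are therefore given as a description, and no test was made on them.

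The cells came from acute myeloid leukemia driven by AML1-ETO9a (AE9a), a truncated fusion protein, which was delivered together with GFP. The cells also carried floxed Usp18 and UBCER-Cre, whose recombinase becomes active in all tissues once tamoxifen is given. Recipients were injected with oil or tamoxifen once sick, and 3 days from the start of injections GFP+ Lin- c-Kit+ cells were sorted out of the spleen, with 3 mice pooled into the 1 library of each injection. The labels name the alleles in conflicting ways: Usp18f/f against Usp18delta/delta in the genotype entry, and Usp18+/f with loss of 1 allele in the protocol. The libraries are thus called oil and tamoxifen. Cre activation and the drug came together, so their effects cannot be told apart.

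After cells with under 500 detected genes or over 10% mitochondrial UMIs were set aside, 6838 oil cells and 6472 tamoxifen cells remained, with 66045700 and 60661486 UMIs. A UMI marks 1 captured transcript, read here at its 3′ end, so levels of different genes were compared without a correction for length. Levels are given as CPM, UMIs of the gene per 1000000 UMIs of the library. Usp18, the targeted gene, stood at 5.62 CPM in the oil library and 15.4 in the tamoxifen library, although the labels name its depletion. Usp18 is also 1 of the 20 interferon genes listed below, and the 17 measured had a median log2 ratio of tamoxifen over oil of 0.94. Its level alone thus cannot show whether the gene was deleted, and oil and tamoxifen stand here for the libraries labelled so. Whether the 3′ counts lie in the deleted part is not given in the sources used here. The sort was checked on marker lists. Neutrophil markers summed to 4 and 3 UMIs, macrophage markers to 9.52 and 9.92 CPM, megakaryocyte markers to 7.46 and 10.3 CPM, and T, B and stromal markers to under 2 CPM each, while Kit, whose product the sort selected, was at 171 and 232 CPM. Other lists were high in the sorted cells. The 16 erythroid genes summed to 9924 and 11178 CPM, and the 12 other mast cell and basophil genes to 6584 and 6756 CPM. 12 of the kept barcodes occurred in both libraries.

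Annexins are proteins that bind the inner face of the membrane when calcium rises, and several of them pair with S100 proteins. The latter are small proteins that act as dimers, and most, though not all, are calcium sensors. Anxa2 and S100a10 form a complex that joins membrane to actin, and AHNAK, a giant scaffold protein, binds this complex. Vimentin is the intermediate filament of blood and mesenchymal cells, calpain 2 is a calcium-dependent protease that cuts cytoskeletal proteins, and galectin 1 binds sugars at the cell surface. In mast cells and basophils this machinery is known from granule release and membrane repair.

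The promoters of these genes are shown as a description. Their transcripts went together with one another and with immediate early genes, whose products include the AP-1 factors. Whether these factors play a part in that was not tested. RefSeq promoters on GRCm38.p6 were found for 8 of the 10 genes. The 250 bases before the start are printed for the 3 genes with an AP-1 motif and for Vim and S100a6. Both strands were searched, and the capitals mark what was found. The AP-1 motif was written TGANTCA. The TATA box was written TATAAA. The GC box was written GGGCGG. The E-box was written CACGTG. The GATA motif was written GATAAG.

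Anxa2: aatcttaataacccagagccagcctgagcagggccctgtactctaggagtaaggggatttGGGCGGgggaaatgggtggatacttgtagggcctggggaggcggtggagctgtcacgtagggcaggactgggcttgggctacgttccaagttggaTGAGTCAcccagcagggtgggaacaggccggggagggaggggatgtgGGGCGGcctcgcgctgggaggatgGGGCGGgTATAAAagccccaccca

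Capn2: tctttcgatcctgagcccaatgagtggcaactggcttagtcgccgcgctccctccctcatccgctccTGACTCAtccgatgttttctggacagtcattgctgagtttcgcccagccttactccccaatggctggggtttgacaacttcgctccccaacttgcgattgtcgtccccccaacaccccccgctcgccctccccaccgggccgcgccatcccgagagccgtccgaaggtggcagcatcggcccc

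S100a11: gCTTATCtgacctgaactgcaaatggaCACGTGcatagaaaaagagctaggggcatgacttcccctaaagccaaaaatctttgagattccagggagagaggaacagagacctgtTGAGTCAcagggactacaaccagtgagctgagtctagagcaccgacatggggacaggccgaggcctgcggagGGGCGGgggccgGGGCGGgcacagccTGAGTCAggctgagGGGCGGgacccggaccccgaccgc

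Vim: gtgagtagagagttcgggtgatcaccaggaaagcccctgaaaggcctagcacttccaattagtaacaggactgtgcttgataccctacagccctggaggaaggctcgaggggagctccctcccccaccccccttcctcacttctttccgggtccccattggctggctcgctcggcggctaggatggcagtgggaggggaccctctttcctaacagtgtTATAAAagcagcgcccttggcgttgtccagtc

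S100a6: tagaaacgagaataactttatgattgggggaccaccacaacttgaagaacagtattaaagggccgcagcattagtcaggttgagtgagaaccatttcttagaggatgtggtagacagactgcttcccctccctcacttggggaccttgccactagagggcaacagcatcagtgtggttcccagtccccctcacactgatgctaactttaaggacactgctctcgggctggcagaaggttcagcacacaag

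These stretches lie at chr9:69453433-69453682 (plus strand) for Anxa2, chr1:182517611-182517860 (minus) for Capn2, chr3:93520246-93520495 (plus) for S100a11, chr2:13574061-13574310 (plus) for Vim and chr3:90612644-90612893 (plus) for S100a6. The AP-1 letters begin 95 bases before the start of Anxa2, 183 bases before that of Capn2, and 136 and 38 bases before that of S100a11. They occurred in 3 of the 8 windows of 250 bases before to 50 after the start, against 7.81% of 32851 such windows. The TATA box was found in 4 of the 8, namely Vim, S100a4, Anxa2 and Anxa1, against 13.6% of windows. It lies 32 bases before the start in Vim and Anxa1, 31 in S100a4 and 17 in Anxa2. The GC box was in 3 of 8 windows (35.7% of all) and the E-box in 2 (7.15%), 1 of which is S100a6, where it lies 15 bases after the start. The GATA motif was found in S100a11 alone (7.44% of all). A match of letters is not a binding site.

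Among the 10 genes, the levels spanned more than 3 orders of magnitude on the CPM scale. Vim (chr2:13573927-13582826), the filament gene, was at 2106 CPM in the oil library (95% counting interval 2095 to 2118) and at 1509 in the tamoxifen library (1499 to 1519). It supplied 75.9% and 75.8% of all UMIs of the 10 genes, so any sum over them is mostly a vimentin value. Next in order came S100a10 with 304 and 242 CPM, Ahnak with 145 and 103, S100a6 with 111 and 78.9, and Anxa2 with 90.6 and 47.5. Capn2 stood lower, at 12.1 and 6.41 CPM, followed by Anxa1 at 2.68 and 2.29. S100a11 (39 and 61 UMIs), Lgals1 (38 and 38 UMIs) and S100a4 (33 and 12 UMIs) were all near or below 1 CPM. Their counting intervals overlapped in the oil library, whereas in the tamoxifen library S100a4 was below both others. The rest of the order held in both libraries with no overlap of neighbouring intervals. All such intervals cover counting error only, not the spread between mice.

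**Figure D1:**
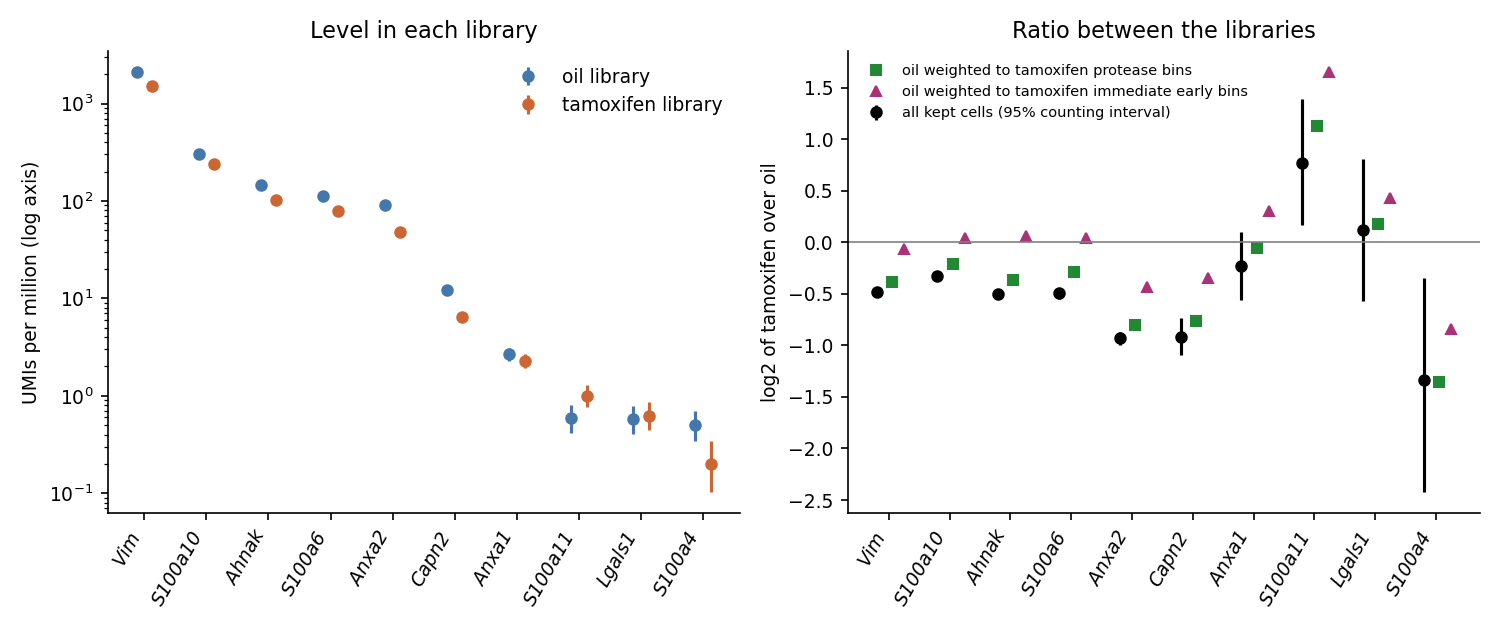
Left, CPM (log axis) of the 10 genes in the oil (blue) and tamoxifen (orange) libraries, with 95% counting intervals. Right, log2 of tamoxifen over oil for all kept cells with 95% counting intervals (black), and after the oil library was weighted to the bins of protease UMIs (squares) or immediate early UMIs (triangles) of the tamoxifen library. Anxa2 (-0.93 for all kept cells), Capn2 (-0.91), Vim (-0.48) and S100a4 (-1.34) lie below 0 in all 3 versions.

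At equal depth, Vim was the only gene of the list seen in most cells. When each cell was thinned at random to 3000 UMIs, which left out 508 oil cells and 345 tamoxifen cells that were shallower, 83.7% of oil cells and 79.8% of tamoxifen cells held a Vim UMI. S100a10 was found in 38.9% and 34.5%, Ahnak in 26.4% and 19.4%, Anxa2 in 17.3% and 9.74%, and S100a6 in 13.8% and 9.01%. Capn2 was found in 4.88% and 2.66% and Anxa1 in 1.01% and 0.865%, and the other 3 genes in under 0.4% of cells. At the full depth of the cells the shares were higher, 24.4% and 14.5% for Anxa2 and 95.1% and 93.6% for Vim. S100a10 was then also in most cells, 59.3% and 54.9%. All cells belong to a single sorted population, and the share that free RNA alone would give could therefore not be read from a cell type that lacks these genes.

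By the ratio of variance to mean, S100a6 stood below Vim alone in the oil library. In thinned cells that held it, it had a mean of 4.21 UMIs in the oil library and 4.61 in the tamoxifen library, against 2.29 and 2.12 for Anxa2, which was seen in more cells. The variance of S100a6 over all thinned oil cells was 7.90 times its mean, against 3.93 for Anxa2, 3.86 for Ahnak and 1.28 for Capn2. The tenth of oil cells with most S100a6 held 93.4% of its UMIs, and the same share was 81.6% for Anxa2, 63.5% for S100a10 and 50.9% for Vim. This share depends on how many cells hold a gene. It is 100% for any gene in under 10% of cells, such as Capn2. The highest count in 1 cell was 340 UMIs for Vim and 83 for S100a6 in the oil library.

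Next, co-detection in single cells was examined. For each pair, the number of thinned cells with a UMI of both genes was divided by the number that the product of their shares gives, so that 1 means no tendency to occur together. Anxa2 and its partner S100a10 were found together in 809 oil cells where 425 were expected, a ratio of 1.90 (1.77 to 2.04), and in 468 tamoxifen cells where 206 were expected, a ratio of 2.27 (2.07 to 2.49). S100a10 was present in 73.9% of oil cells with Anxa2 and 31.5% of those without it. In the tamoxifen library these shares were 78.4% and 29.8%. Ahnak, the scaffold of the complex, was in 69.4% of oil cells with Anxa2 and in 17.4% of the others. All 3 transcripts were seen in 584 oil cells against 112 expected and in 338 tamoxifen cells against 39.9 expected, which gives ratios of 5.21 (4.79 to 5.65) and 8.48 (7.60 to 9.43).

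S100a6 had higher ratios with Anxa2 than S100a10 did, and the ratio a pair can reach is lower for genes found in more cells. The pair Anxa2 and S100a6 reached 3.11 (2.83 to 3.40) in the oil library and 4.33 (3.79 to 4.93) in the tamoxifen library, with 470 and 233 cells. Among pairs with at least 5 expected cells, the highest ratio was that of S100a6 and Capn2, 4.19 (3.60 to 4.85) and 5.92 (4.75 to 7.31). Pairs of Vim were all between 1.08 and 1.25, and a gene found in 83.7% of cells leaves little room above 1. Of the few cells with Anxa1, a receptor ligand and phospholipase inhibitor as a protein, 73.4% of 64 in the oil library held Ahnak, against 25.9% of the others. In the tamoxifen library all 16 cells with S100a11 held S100a10, where 5.52 were expected.

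**Figure D2:**
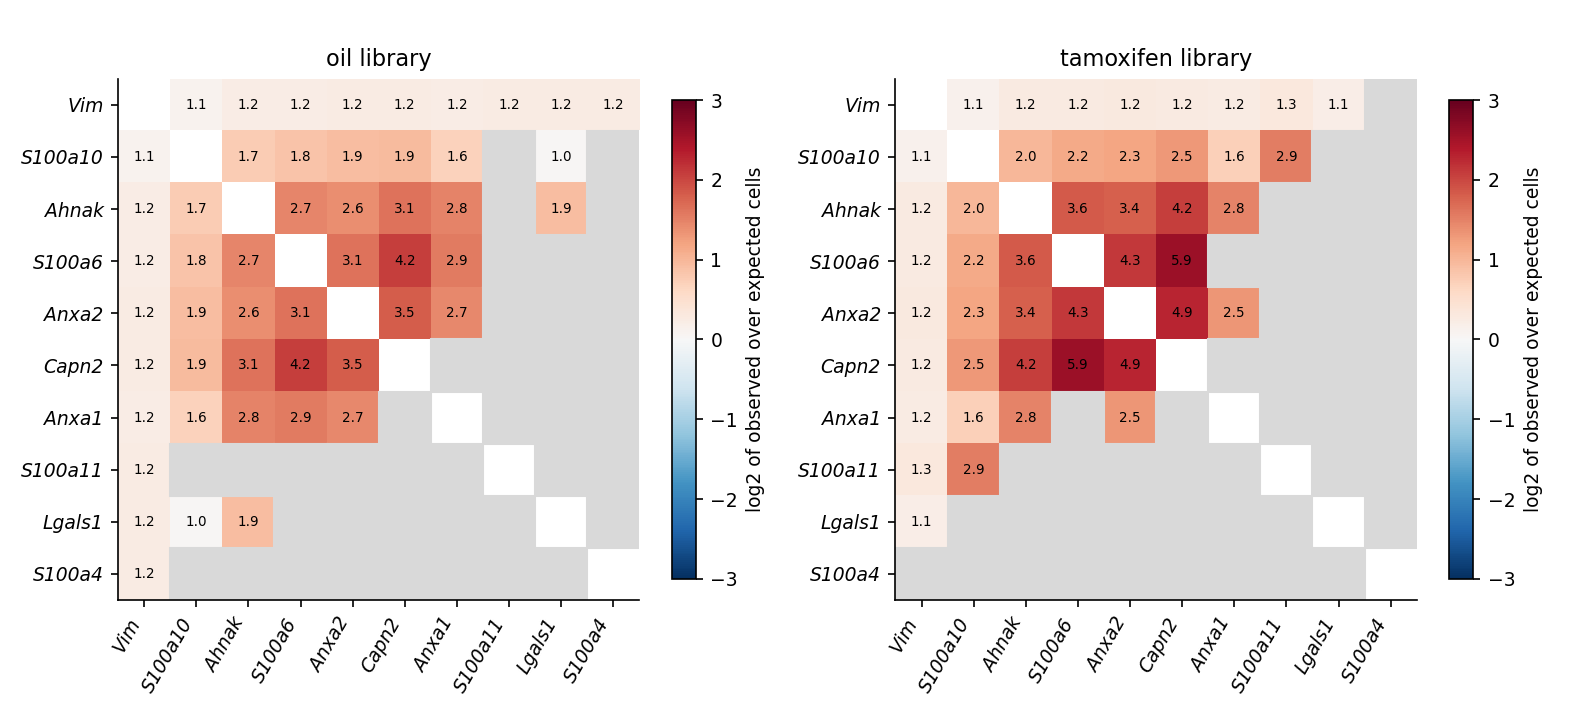
Ratio of observed to expected cells with both transcripts for each pair of the 10 genes, in cells thinned to 3000 UMIs, with colour on a log2 scale and the ratio itself printed in each square. Grey squares had fewer than 5 expected cells. Squares among Ahnak, S100a6, Anxa2 and Capn2 range from 2.63 to 4.19 in the oil library and from 3.44 to 5.92 in the tamoxifen library.

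The median ratio over all 45 pairs was 1.90 in the oil library and 2.52 in the tamoxifen library. Many of these pairs rest on a handful of cells. Anxa2, S100a6, S100a10, Ahnak and Vim were found in at least 5% of cells, the minimum for a comparison with other genes. Of their 10 pairs, 6 reached a ratio of 1.25 in each library, and their medians were 1.76 and 2.09. Over all pairs of genes found in at least 5% of cells, 3.24% reached 1.25 in the oil library and 3.25% in the tamoxifen library, with medians of 1.002 and 1.003. The 4 pairs that did not reach it were those with Vim. The 5 transcripts were all seen in 306 oil cells against 12.97 expected and in 160 tamoxifen cells against 2.87.

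Cells with many of the 10 transcripts and cells with none were both more frequent than independent detection gives. At least 6 of the 10 were found in 104 oil cells (1.64%, 1.34% to 1.99%) and 51 tamoxifen cells (0.832%, 0.620% to 1.09%), where independence gives 0.0160% and 0.00241%. None was found in 12.1% and 15.2% of cells, against 4.90% and 8.39%. No cell held 8 or more. With an upper limit of 3 counts for 0, that allows a share of up to 0.0474% in the oil library and 0.0490% in the tamoxifen library. For calpain 2, co-detection was also computed with genes outside the 10. Its ratio was 1.37 (1.20 to 1.56) and 1.43 (1.19 to 1.71) with Capns1, the small subunit it needs, and 1.84 (1.56 to 2.15) and 2.07 (1.67 to 2.54) with Cast, its inhibitor calpastatin.

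Mast cell proteases were the next point of comparison. The list of 14 held the chymase genes Cma1, Cma2, Mcpt1, Mcpt2, Mcpt4 and Mcpt9, the carboxypeptidase gene Cpa3, the tryptase genes Tpsab1, Tpsb2 and Tpsg1, and Mcpt8, Gzmb, Ctsg and Prss34. Together they made 0.129% of oil UMIs and 0.101% of tamoxifen UMIs. Cma1 was the largest, with 517 and 426 CPM, then Cpa3 with 352 and 321, Mcpt1 with 218 and 123 and Mcpt2 with 151 and 101.3. Mcpt4 was at 28.5 and 21.0, Tpsab1 at 11.7 and 9.63, and the other 8 ranged from 0 to 4.29 CPM. In 47.1% of thinned oil cells and 52.0% of thinned tamoxifen cells no protease UMI was seen.

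All 10 genes were higher in the quartile of cells with most protease UMIs than in the quartile with fewest, by 1.5-fold or more, in both libraries. Over all genes that share was 27.5% in the oil library and 23.2% in the tamoxifen library, while 15.4% and 13.7% were lower by as much. The median log2 ratio of the 10 was 3.67 in the oil library and 3.69 in the tamoxifen library, against 0.15 and 0.14 over all genes. S100a6 went from 11.8 to 476 CPM in the oil library and from 3.54 to 366 in the tamoxifen library, log2 ratios of 5.33 (5.14 to 5.53) and 6.69 (6.34 to 7.08). Vim had the lowest ratios of the 10, 2.42 and 2.17. Since so many cells had no protease UMI, those of the lowest quartile were drawn at random among them, and fixed bins were added once this was seen.

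In these bins, of 0, 1 to 2, 3 to 9 and 10 or more protease UMIs of 3000, the levels climbed at each step for Vim, S100a10, Ahnak, S100a6, Anxa2 and Capn2 in both libraries. S100a6 was at 11.3, 47.1, 226 and 607 CPM in the oil library and at 5.86, 40.6, 218 and 478 in the tamoxifen library. Anxa2 was at 21.5, 92.4, 221 and 327 in oil cells, and at 12.9, 62.5, 123 and 168 in tamoxifen cells. By fold, the first step of Anxa2 was larger than its later ones in both libraries, as it was for Vim, S100a10, Ahnak and Capn2. For S100a6 this held in the tamoxifen library but not in the oil library. Ahnak ran from 34.3 to 560 CPM and from 28.6 to 376, and Capn2 from 2.01 to 53.4 and from 0.937 to 27.8. Anxa1, which is scarce, had 0.317, 2.26, 4.74 and 13.7 CPM in oil cells and 0.429, 1.52, 4.801 and 13.5 in tamoxifen cells. By share of cells, S100a6 was seen in 2.65% of oil cells with no protease UMI and in 43.0% of those with 10 or more, and Vim in 73.1% and 98.0%.

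**Figure D3:**
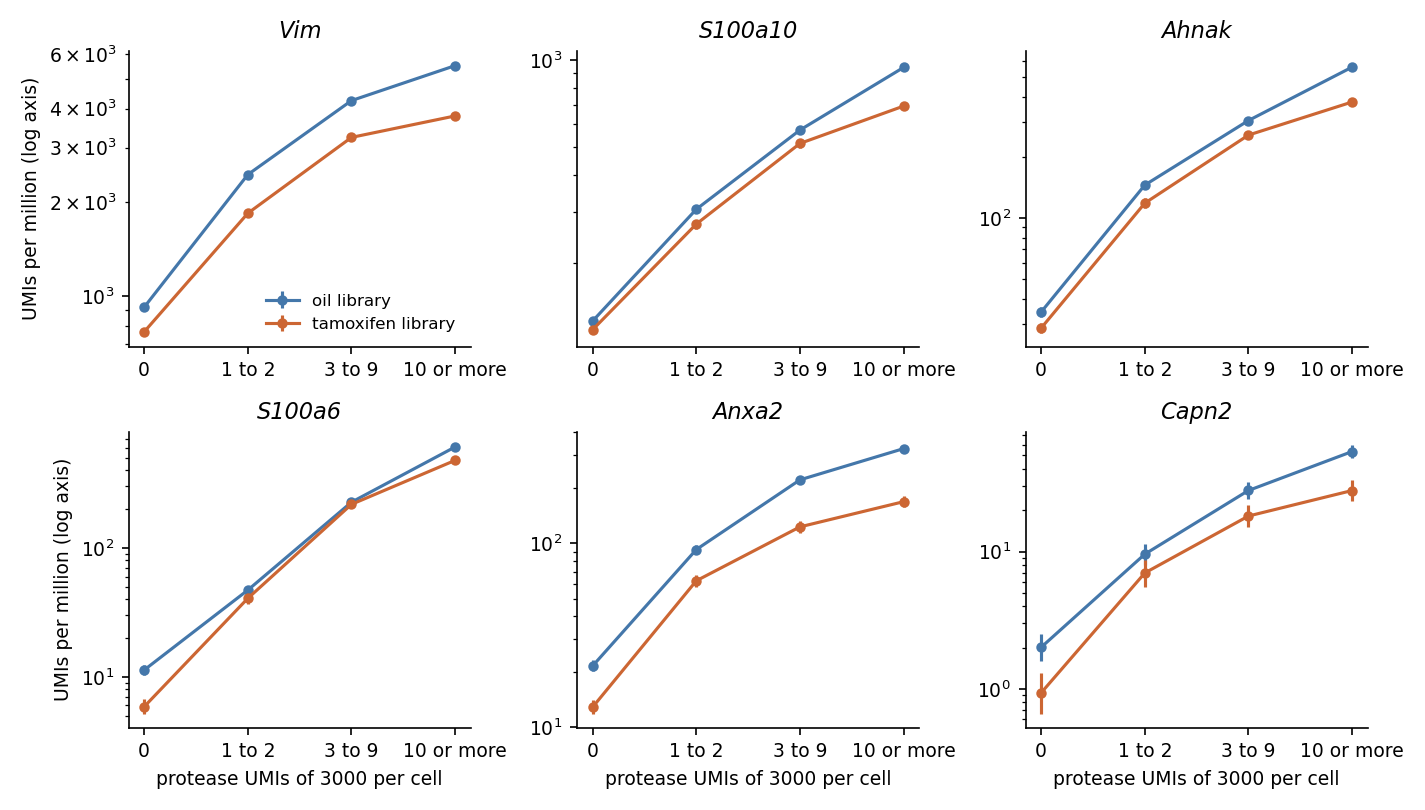
CPM (log axis) of 6 genes in cells with 0, 1 to 2, 3 to 9 or 10 or more mast cell protease UMIs of 3000, for the oil (blue) and tamoxifen (orange) libraries, with 95% counting intervals. All lines climb from left to right, and for all 6 genes the oil line is above the tamoxifen line in each bin.

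Other features moved with the protease bins. The median depth of the cells was 12203 UMIs with no protease UMI and 4846.5 with 10 or more in the oil library, and 10956 and 5063 in the tamoxifen library. S phase UMIs of 3000 had medians of 10 and 4 in these oil bins and 7 and 3 in the tamoxifen bins, and the median share of ribosomal protein UMIs went from 26.2% to 17.8% and from 29.6% to 21.8%. The 10 macrophage markers summed to 6.29 CPM in oil cells with no protease UMI and to 16.9 in those with 10 or more, where Csf1r, Adgre1 and Mrc1 were at 0. In the tamoxifen library they summed to 7.36 and 25.3, and Csf1r, Adgre1, Cd14 and Mrc1 were at 0 in the highest bin. The 6 megakaryocyte markers went from 3.83 to 24.6 and from 5.70 to 30.8 CPM, with Gp1bb and Ppbp at 0 in the highest bin of both libraries and Gp9 in that of the tamoxifen library, whereas all 10 neutrophil markers were at 0 in the highest bin of either library. The 8 T and NK cell markers went from 0.106 to 2.19 and from 0.295 to 3.85 CPM, with 7 of them at 0 in the highest bin of both libraries. The part of these features in the protease result was not tested.

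Cma1 and Cpa3, the most abundant proteases, went with different levels of the 10 genes. Cells were grouped, after the first results were seen, by a UMI of Cma1, of Cpa3, of both or of neither. S100a6 stood at 31.3 CPM in the 3467 oil cells with neither, 33.6 in the 894 with Cpa3 alone, 400.2 in the 1047 with Cma1 alone and 303 in the 922 with both. In the tamoxifen library the same groups gave 18.1, 10.7, 349.7 and 232 CPM, in 3590, 797, 977 and 763 cells. Cpa3 without Cma1 thus went with a log2 ratio of 0.10 (-0.09 to 0.29) over cells with neither in the oil library, and of -0.76 (-1.12 to -0.41) in the tamoxifen library. With Cma1 alone the log2 ratio was 3.67 (3.58 to 3.77) and 4.28 (4.16 to 4.40).

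Anxa2, Ahnak, S100a10, Capn2 and Vim were also higher with Cma1 alone than with Cpa3 alone. Anxa2 had log2 ratios of 0.80 with Cpa3 alone and 2.66 with Cma1 alone in the oil library, and 0.39 and 2.69 in the tamoxifen library. Ahnak had 0.43 and 2.65, and 0.38 and 2.57. Anxa1 had a log2 ratio of 2.51 (1.65 to 3.39) for Cpa3 alone, 3.56 (2.82 to 4.33) for Cma1 alone and 4.36 (3.66 to 5.12) for both in the oil library, and 2.36, 2.85 and 4.45 in the tamoxifen library. S100a4 had no UMI in cells with Cpa3 alone, in either library, with counting intervals that reach up to 0.437 and 0.532 CPM. Its levels in cells with neither were 0.164 and 0.0731 CPM, below these limits, so no lower level can be read from the zeros. Cma1 and Cpa3 were themselves found together 1.63 and 1.72 times as often as their shares give. Cells with Cma1 alone also had fewer UMIs than cells with Cpa3 alone, with medians of 6281 and 8314 in the oil library. The median share of ribosomal protein UMIs was lower with Cma1 alone, 18.0% against 25.4% in oil cells and 22.1% against 29.5% in tamoxifen cells. Median immediate early UMIs of the thinned cells were 6 against 4 and 4 against 3. Median S phase UMIs were equal, at 5 in oil cells and 4 in tamoxifen cells. The part of these features in the contrast between Cma1 and Cpa3 was not tested.

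**Figure D4:**
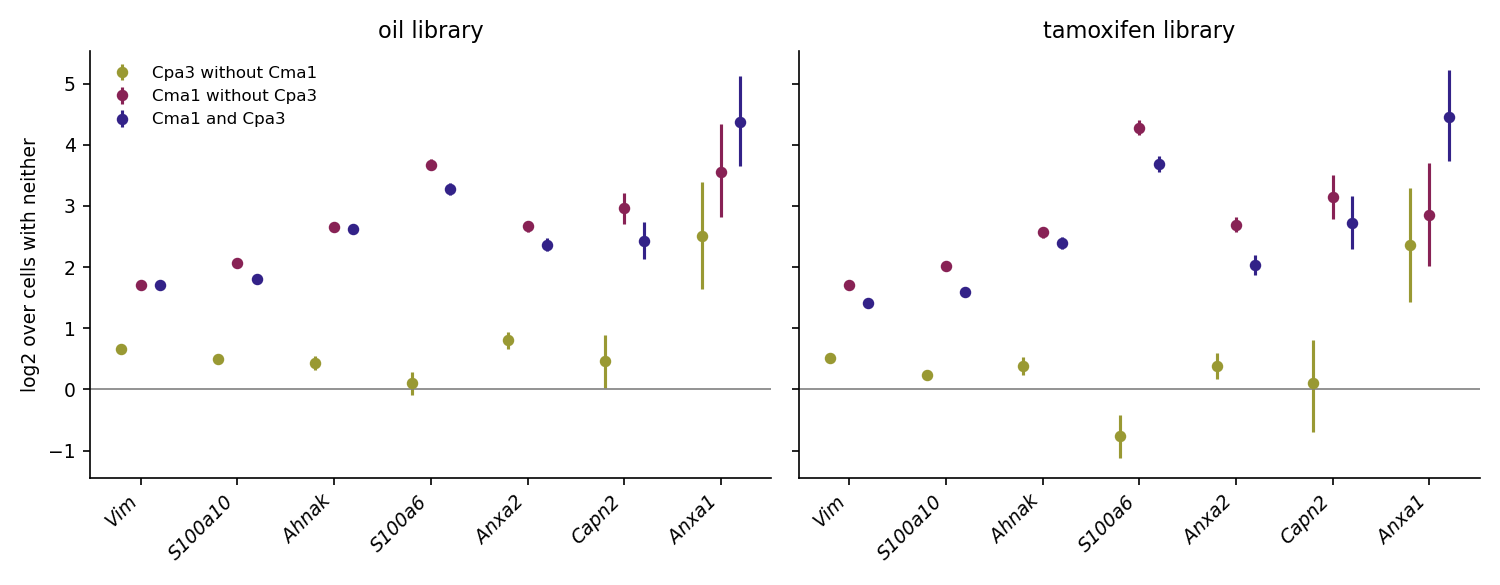
Log2 ratio of 7 genes in cells with a UMI of Cpa3 but not Cma1 (olive), Cma1 but not Cpa3 (wine) or both (indigo) over cells with neither, in each library, with 95% counting intervals. For 6 of the genes the olive points lie below 1 and the others between 1.40 and 4.28, whereas Anxa1 is above 2 in all groups.

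Single proteases were then taken in turn. Cells with a Mcpt1 UMI had a median log2 ratio over the 10 genes of 2.35 in the oil library and 2.33 in the tamoxifen library relative to cells without it. For Mcpt2 the medians were 2.24 and 2.43, for Cma1 2.47 and 2.71, and for Cpa3 0.72 and 0.48. As Pearson correlations of log(1 + UMIs) over the 6330 and 6127 thinned cells, S100a6 had 0.47 and 0.40 with Cma1 but 0.02 and -0.01 with Cpa3. Vim had 0.38 and 0.33 with Cma1 and 0.19 and 0.11 with Cpa3. These points are cells of 1 library at equal depth, and the values describe them only.

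The same quartiles were formed on other lists. For the 17 immediate early genes, the median log2 ratio of the 10 genes between the highest and lowest quartile was 3.84 in the oil library and 3.62 in the tamoxifen library (3.02 with S100a4, which was at 0 in the lowest quartile, set to 3 counts there). Between these immediate early quartiles Ahnak went from 27.4 to 485 CPM in oil cells and from 24.9 to 349 in tamoxifen cells. For 12 other mast cell and basophil genes the median of the 10 was 4.03 and 3.67, and 3.59 and 3.50 with the genes at 0 set to 3 counts. In the opposite direction, the medians were -3.46 and -2.59 for S phase genes, -2.67 and -2.42 for G2 and mitosis genes, and -4.799 and -4.81 for ribosomal protein genes (-4.30 and -3.72 with S100a4, at 0 in the highest quartile, set to 3 counts). S100a6 was at 693 CPM in the oil cells with the lowest ribosomal protein share and 3.89 in those with the highest, and at 487 and 3.19 in the tamoxifen library. For interferon genes the median was 0.51 in both libraries (0.50 in the tamoxifen library with S100a4 set to 3 counts), for mitochondrial genes 0.53 and 0.05, and for erythroid genes 0.66 and 0.86 (0.79 in the tamoxifen library with S100a4 set to 3 counts), with S100a6 at 1.87 and 2.01 and Vim at -0.14 and 0.16. All-gene medians ranged from -0.12 to 0.18 over these lists.

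**Figure D5:**
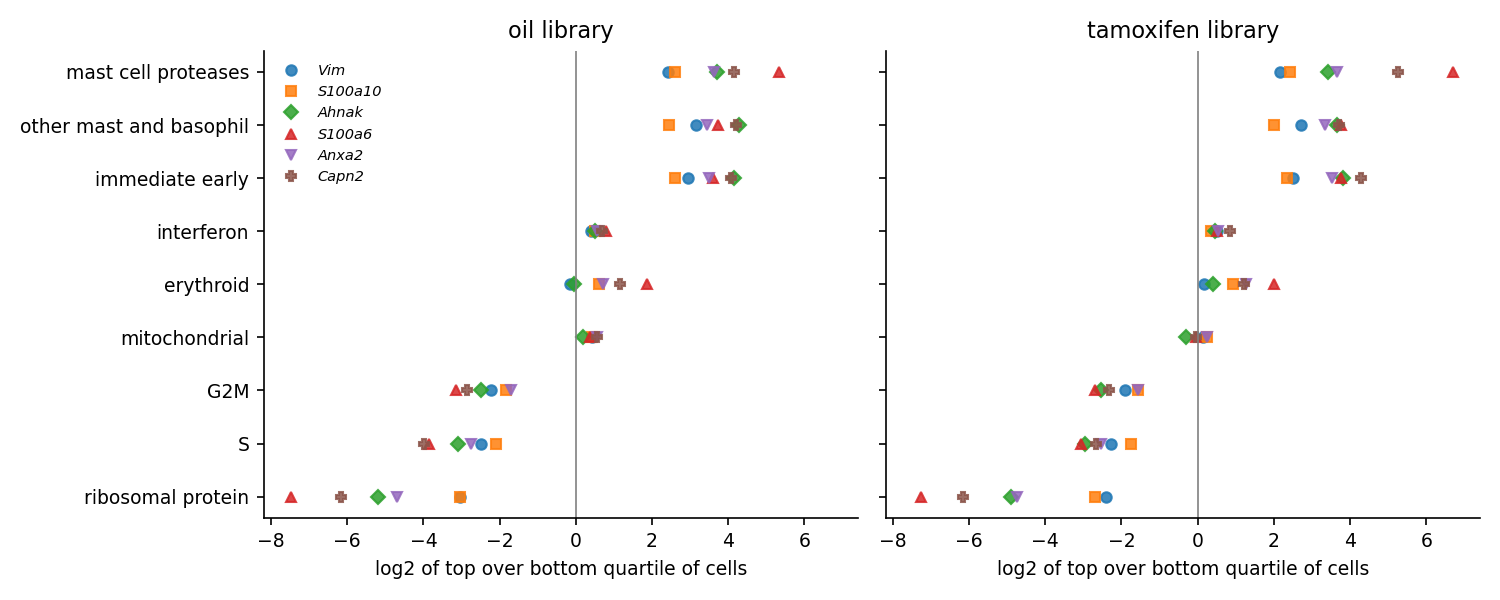
Log2 ratio of 6 genes between the quartiles of cells with most and with fewest UMIs of each gene list, after thinning to 3000 UMIs, in both libraries. The 6 genes lie above 2 for mast cell proteases and immediate early genes and below -1.5 for S, G2M and ribosomal protein genes.

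Genes whose pattern over single cells was most like the sum of the 10 were sought among 5991 others, as Pearson's correlation of log(1 + UMIs) over the thinned cells, averaged over both libraries. Crip1, a LIM domain protein, had a mean correlation of 0.74, as did Serpinb1a, an inhibitor of neutrophil serine proteases, followed by Lgals3, galectin 3, at 0.73. Capg and Gsn, which cap and sever actin filaments, had 0.54 and 0.48, and Neat1, Adgre5, Sh3bgrl3, Iqgap1 and Malat1 were between 0.45 and 0.49. The sum is mostly Vim, but Lgals3 was among the 3 most alike for all of the 10 but Anxa1 and S100a4. Its mean correlation ran from 0.32 with Capn2 to 0.68 with Vim, but was only 0.08 with S100a11 and 0.04 with Lgals1. Cma1 was the closest gene to Anxa1, at 0.13, and the third closest to S100a6, at 0.43. The lowest values belonged to ribosomal protein genes together with Npm1 and Ptma, from -0.54 to -0.47. Crip1 had a log2 ratio of 0.25 between the libraries, the opposite sign to Vim.

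Finally, the libraries were compared. The 10 genes had a median log2 ratio of tamoxifen over oil of -0.49, against -0.06 over the 10527 genes whose UMIs summed to 100 or more. S100a4 and Lgals1 fall short of that minimum, and the median of the 8 that reach it was also -0.49. Of the 10, 8 were lower in the tamoxifen library (61.7% of all genes), 7 of them with a counting interval below 0, where the share over all genes was 39.8%. S100a11 was the only one with an interval above 0 (19.3% of all genes). Anxa2, Capn2 and S100a4 were lower by at least 1.5-fold, as were 1.27% of the genes with 100 or more UMIs and 3.03% of those with 20 or more, a set that also holds S100a4. These ratios were known when the genes were chosen, so nothing is read from the counts.

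Anxa2 was 1.91-fold lower in the tamoxifen library, a log2 ratio of -0.93 (-0.996 to -0.87), and took rank 24 from the lowest among the 10527 genes. Capn2 followed with -0.91 (-1.09 to -0.74). Ahnak (-0.50), S100a6 (-0.49) and Vim (-0.48) lay close together, and S100a10, the partner of Anxa2, was at -0.33 (-0.36 to -0.30). Anxa1 was at -0.23 (-0.56 to 0.10) and Lgals1 at 0.12 (-0.57 to 0.81), both with intervals across 0. S100a11 had 0.77 (0.16 to 1.39) from 39 and 61 UMIs, and S100a4 had -1.34 (-2.43 to -0.35) from 33 and 12. Single cells weigh on both ratios, whereas the intervals take each UMI as independent. S100a11 was in 26 oil cells and 27 tamoxifen cells, and 1 tamoxifen cell held 14 of its UMIs. S100a4 was in 19 and 10 cells, and 1 oil cell held 11 of its UMIs. With equal weight for every cell S100a11 was at 0.52 and S100a4 at -0.88. In the 673 and 771 cells that passed a stricter filter (1000 or more genes, mitochondrial UMIs of 5% or less), Anxa2 was at -0.54 and Capn2 at -0.33 (-0.78 to 0.11), while S100a11 changed sign to -0.27 (-1.85 to 1.27) and Anxa1 to 0.22 (-0.69 to 1.14). For Anxa2, 17.3% of thinned oil cells and 9.74% of thinned tamoxifen cells held it, with means of 2.29 and 2.12 UMIs in such cells. For Vim the shares were 83.7% and 79.8%, with means of 10.6 and 7.65.

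Because the levels of these genes varied so much with the state of the cells, the libraries were also compared within bins, a step added after the first results were seen. Anxa2 was lower in the tamoxifen library in each protease bin, with log2 ratios of -0.74, -0.56, -0.85 and -0.96 from no protease UMI to 10 or more. Cells with 10 or more made 17.8% of the oil library and 14.02% of the tamoxifen library. Anxa2 was not alone in this, as Vim, S100a10, Ahnak, S100a6 and Capn2 also had lower CPM in the tamoxifen library in each protease bin. For S100a6 and Capn2 the counting intervals of the libraries overlapped in some bins. When the oil library was weighted to the UMI shares that the protease bins have in the tamoxifen library, Anxa2 was at -0.80, Capn2 at -0.77, Vim at -0.39, Ahnak at -0.37, S100a6 at -0.28 and S100a10 at -0.22.

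Weighting by immediate early UMIs put Vim at -0.07, S100a6 at 0.04, S100a10 at 0.05 and Ahnak at 0.06. The median of all genes was -0.03 with this weighting and -0.06 without it. Anxa2 was then at -0.43 and Capn2 at -0.35, and the scarce genes were at -0.84 (S100a4), 0.30 (Anxa1), 0.43 (Lgals1) and 1.65 (S100a11). Cells with 6 or more immediate early UMIs made 36.5% of the oil library and 21.2% of the tamoxifen library. In each of the 4 immediate early bins Anxa2 was lower in tamoxifen cells, with log2 ratios between -0.79 and -0.31. Weighting by ribosomal protein UMIs gave -0.18 for Anxa2, 0.04 for Vim, -0.07 for Capn2, 0.47 for S100a6 and 0.30 for Ahnak. From the lowest to the highest ribosomal protein bin, Anxa2 was at -0.16, 0.70 (0.53 to 0.87), -0.25 and -1.34, so it was higher in tamoxifen cells in 1 of the 4 bins, as was Capn2 there at 1.09 (0.52 to 1.65). The highest of these bins held 7.58% of oil cells and 43.2% of tamoxifen cells. Weighting by S phase UMIs moved the ratios the other way, to -1.27 for Anxa2 and -0.79 for Vim. Immediate early and ribosomal protein transcripts differ between the libraries themselves, so such bins need not hold like cells.

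Relatives of the 10 genes were then examined, and the counts of lower genes stand beside the 61.7% of all genes that were lower. Of 10 other annexins, 6 reached 100 UMIs and all 6 were lower in the tamoxifen library, with a median of -0.16, from Anxa6 at -0.38 and Anxa11 at -0.20 to Anxa5 at -0.18 and Anxa7 at -0.13. Of 12 other S100 genes, S100a1 (0.04) and S100a13 (0.16) alone reached the minimum. Among the galectins Lgals3 was lower (-0.32), and Lgals8 (0.32), Lgals7 (0.22) and Lgals9 (0.13) were higher. The calpains and partners measured besides Capn2 were lower in 5 of 7 cases, with a median of -0.08 and with Capn1 at -0.16, Capns1 at -0.14, Cast at 0.02 and Capn7 at 0.08. Of 15 measured membrane linkers 13 were lower, with a median of -0.09, from Ezr, which joins membrane proteins to actin, at -0.41 and Slc9a3r1 at -0.24 to Tln1 at 0.00 and Epb41 at 0.11.

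Filament and actin binding genes were lower in 23 of 24 cases, with a median of -0.26. Tuba1a (-0.73) and Lmnb1 (-0.63) were lowest and Myh9 (-0.10) and Myl6 (-0.07) highest by the rule used for naming. Mast cell proteases were lower in 8 of the 9 measured, with a median of -0.44, which included Mcpt1 at -0.82 and Cma1 at -0.28. Immediate early genes had a median of -0.46 in 14 measured genes, from Fosb (-1.69) and Fos (-1.22) to Egr1 (-0.31) and Btg2 (-0.20), and interferon genes had 0.94 in 17, from Ifi35 (-0.02) and Bst2 (0.24) to Irf7 (1.58) and Rtp4 (2.23). S phase genes had a median of -0.39 in 42, from Uhrf1 (-0.62) and Cdc45 (-0.54) to Casp8ap2 (-0.10) and Blm (0.01), and G2 and mitosis genes -0.36 in 52, from Tubb4b (-0.68) and Cdk1 (-0.55) to G2e3 (-0.10) and Kif23 (-0.08). For 12 other mast cell and basophil genes the median was -0.01, from Fcer1a (-0.26) and Gata2 (-0.18) to Hdc (0.32) and Kit (0.44), and for 16 erythroid genes it was -0.01, from Car1 (-0.30) and Tfrc (-0.24) to Hba-a2 (0.82) and Rhag (1.07).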

How the data were processed

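Per the labels and file headers, the authors made libraries with the 10x Genomics V3 kit, targeted 8000 cells for each, mapped reads to mm10 and counted UMIs with Cell Ranger 3.0.2. The deposited values are raw UMI counts per gene and barcode. Seurat is named for the study's own analysis and was not used here.

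Barcodes under 500 genes or over 10% mitochondrial UMIs were set aside. No doublet caller was run, and doublets were addressed by an alternative that dropped the top 6% of cells by UMIs. Counts were summed per library. Ratios have exact conditional binomial intervals, levels exact Poisson intervals and shares exact Clopper-Pearson intervals, all at 95% and for counting error only. A count of 0 was given an upper limit of 3 counts. With 1 library per injection no test was made and no p-value is given. Median depths were 8622.5 and 8209.5 UMIs. Co-detection, quartiles and correlations used cells thinned once to 3000 UMIs; levels within quartiles, protease bins and Cma1 and Cpa3 groups used all UMIs of those cells, with the list in question left out of the total. For weighting, bins other than those of protease UMIs were cut at the quartiles of both libraries together.

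The 10 genes and all lists were chosen with earlier results of these data known, and the fixed bins, Cma1 and Cpa3 groups and weightings were added after the data were seen. All 10 genes and 14 proteases are named; of each other list, the 2 extreme ratios at either end among genes of 20 CPM or more in either library, plus single genes that a sentence turns on. Likeness was the mean over both libraries of Pearson's correlation. Gene positions are from GENCODE M21 on GRCm38, the assembly of mm10. Anxa2, S100a4, Anxa1 and Capn2 overlap other annotated genes. Ratio, co-detection and thinning steps were tested on simulated data. Alternatives were other cell filters, scalings, thinning depths, count minimums and protease lists. Software was matplotlib 3.10.9, pandas 2.3.3, scipy 1.17.1 and numpy 2.4.6 in Python 3.11.15, with R 4.3.3, edgeR 4.0.16 (TMM factors) and DESeq2 1.42.0 (size factors).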

Additional observations from a re-analysis of the deposited data

How the results depend on the processing

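No paired analysis was possible because there was a single library for either injection, and no replicate could be left out. The strictest filter (1000 or more genes, mitochondrial UMIs of 5% or less) kept 673 and 771 cells. Under it the median library log2 ratio went from -0.49 to -0.32, the median ratio of the 10 commonest pairs to 1.57 (oil) and 1.83 (tamoxifen), the oil protease quartile median to 4.75 (9 genes with a UMI, 3 of them at 0 in the lowest quartile), and the S100a11 library ratio turned to -0.27 and that of Anxa1 to 0.22. S100a4 had 3 and 0 UMIs there and entered as a lower gene, and without it the median was -0.31 with 7 of 9 genes lower. Leaving it out was added after the data were seen, as were protease medians with genes at 0 set to 3 counts. The latter were 2.97 and 2.71 under this filter. Over 11 alternatives the median library ratio stayed between -0.53 and -0.32, and over the 8 of them that change cells or scaling 8 or 9 genes were lower, S100a4 included under the strictest filter. Those pair medians (1.76 and 2.09) were 1.35 and 1.59 within protease quartiles, 1.95 and 2.36 at 2000 UMIs per cell, and 1.28 and 1.40 without thinning, and the tamoxifen one was 1.86 at 5000 UMIs. Proteases reduced to Cpa3 alone gave quartile medians of 0.68 and 0.62, and the list without Cpa3 gave 3.36 and 3.45. Of 79 single-gene library ratios under an alternative, 51 stayed within the counting interval, 27 moved beyond it, and 1 with an interval off 0 turned (S100a11). Anxa1, above, and Lgals1, from 0.12 to -0.0075 with equal weight for every cell, changed sign from intervals across 0. The causes were not tested. Only counting error could be given for any value. Depth limits S100a4, Lgals1, S100a11 and Anxa1, with under 200 UMIs per library.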

Other observations

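Barcodes set aside by the filter, 936 in the oil library and 839 in the tamoxifen library, entered none of the comparisons above, only the alternatives with wider cell filters. In them Vim had a log2 ratio of tamoxifen over oil of -0.91, Anxa2 of -1.15, S100a6 of -1.24 and Ahnak of -1.02, each lower than in the kept cells. Anxa2 was at 178 CPM in the oil barcodes and 80.1 CPM in the tamoxifen barcodes that were set aside. Their low gene number or high mitochondrial share limits what these values describe.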
